A study of Mus musculus with 6 samples.

Results

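The genes described here are 9 laminin chain genes of the mouse, the alpha chain genes Lama1, Lama2, Lama3, Lama4 and Lama5, the beta chain genes Lamb1, Lamb2 and Lamb3, and the gamma chain gene Lamc1. They were taken by symbol from a table of 43074 gene symbols. All 9 were found in the table and all 9 passed the filter on low counts, as did 17433 genes in all.

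Expression was measured by RNA sequencing of wild-type C2C12 cells, an established line of mouse myoblasts that fuse into multinucleate myotubes when serum is reduced. The day 0 group was untreated, and cells were otherwise grown in medium with fetal bovine serum. For the day 4 groups the medium was changed to differentiation medium with horse serum, holding either DMSO, the solvent control, or 4-phenylbutyric acid (4-PBA) at 1 mM, an aromatic short-chain fatty acid that helps proteins fold and inhibits histone deacetylases. The 3 groups had 2 libraries each, and the series addresses how 4-PBA acts on myoblasts and on the expression of extracellular matrix genes. All libraries came from 1 cell line, and whether the 2 replicates of a group came from different cultures is not stated in the labels. The p-values therefore measure only the spread between these libraries. For each gene that spread was drawn largely from all tested genes (3 residual degrees of freedom, beside a median of 30.4 from the other genes).

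Laminins are secreted heterotrimers of 1 alpha, 1 beta and 1 gamma chain, joined through a coiled coil, and they are the main organizers of basement membranes. In skeletal muscle the laminin with the alpha 2 chain surrounds each adult fibre and binds dystroglycan and the alpha 7 beta 1 integrin, and loss of the alpha 2 chain causes a congenital muscular dystrophy. The alpha 1, alpha 4 and alpha 5 chains are known from embryonic muscle, vessels and the neuromuscular junction, where the beta 2 chain is also concentrated, while the alpha 3 and beta 3 chains belong to the laminin that anchors epithelia.

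Total counts per library were 47908926 to 74697397, so counting error was small for the abundant members. It was larger for Lama3, with 161 and 184 reads at day 0, and Lama4, with 162 and 343, and largest for Lama1. The summed level of 8 myogenic markers was 1066 and 1074 CPM (counts scaled to the size of the library) at day 0, 5073 and 5251 CPM in the DMSO libraries, and 4937 and 5006 CPM with 4-PBA. Myog, the transcription factor of the differentiation program, rose from 7.94 and 7.85 CPM at day 0 to 277 and 297 CPM with DMSO. Of the 8 markers, 7 were higher with DMSO than at day 0 at an adjusted p-value under 0.05. The remaining marker, Myf5, was lower (log2 fold change -1.14, adjusted p = 5.96e-19), which the summed level does not show. Markers of other cell types were low, with 6 of 7 epithelial, 3 of 4 endothelial, 3 of 4 macrophage, 3 of 4 Schwann cell and 4 of 4 adipocyte markers under 1 CPM in all 6 libraries, and Sox10 and Foxd3 of Schwann cells at 0 counts. In bulk samples, fewer cells of a type and less RNA per cell cannot be told apart.

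The stretches upstream of the annotated starts are shown for the members with an entry in the RefSeq promoter table of build GRCm38.p6, because 3 of them (Lama2, Lamb2 and Lamb3) rose clearly by day 4 while Lama5 and Lamb1 moved little, and because the series title names the transcription factor Egr-1. Entries were found for 5 of the 9 members. Each sequence runs 5′ to 3′ on the strand of its gene, begins 250 bases before the start in the RefSeq table, and stops at that start or before the first base that GENCODE M21 annotates as exon, whichever comes first. It therefore holds all 250 bases for Lama2 and Lama5, 249 for Lamb3, 191 for Lamb1 and 124 for Lamb2. The coordinates are chr10:27616943-27617192 on the minus strand for Lama2, chr9:108479612-108479735 on the plus strand for Lamb2, chr1:193301744-193301992 on the plus strand for Lamb3, chr2:180225860-180226109 on the minus strand for Lama5, and chr12:31265043-31265233 on the plus strand for Lamb1. Capitals mark the E-box letters CANNTG, which bind MyoD-type factors among others, and the letters GCGNGGGCG of the Egr-1 motif on either strand.
Lama2: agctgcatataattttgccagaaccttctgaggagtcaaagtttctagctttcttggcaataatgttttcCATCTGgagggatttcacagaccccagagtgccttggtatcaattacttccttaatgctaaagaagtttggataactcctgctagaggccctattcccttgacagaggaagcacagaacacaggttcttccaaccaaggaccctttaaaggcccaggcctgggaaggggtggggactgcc
Lamb2: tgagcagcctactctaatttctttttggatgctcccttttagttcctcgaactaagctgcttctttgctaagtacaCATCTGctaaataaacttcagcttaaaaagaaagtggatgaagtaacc
Lamb3: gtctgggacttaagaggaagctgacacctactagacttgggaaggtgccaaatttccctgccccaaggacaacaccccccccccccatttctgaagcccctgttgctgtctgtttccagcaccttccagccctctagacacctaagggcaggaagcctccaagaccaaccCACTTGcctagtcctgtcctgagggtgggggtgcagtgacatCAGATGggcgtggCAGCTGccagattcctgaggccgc
Lama5: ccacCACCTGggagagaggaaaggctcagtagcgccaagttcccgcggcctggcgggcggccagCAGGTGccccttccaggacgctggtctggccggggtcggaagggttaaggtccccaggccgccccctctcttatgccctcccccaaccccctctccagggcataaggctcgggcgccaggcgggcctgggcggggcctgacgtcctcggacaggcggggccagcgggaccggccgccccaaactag
Lamb1: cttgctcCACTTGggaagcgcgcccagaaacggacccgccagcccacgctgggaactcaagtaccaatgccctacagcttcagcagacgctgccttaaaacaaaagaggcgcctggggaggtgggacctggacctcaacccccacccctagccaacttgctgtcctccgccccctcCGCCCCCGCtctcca

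Both strands of the full 250 bases before each RefSeq start were searched, which for Lamb1, Lamb2 and Lamb3 includes the bases from the first annotated exon base on that are not printed, and distances are counted to the RefSeq start. The 5 genes had 6 such windows, since Lamb3 had a second one. CANNTG was found in all 6 windows and in 66.2% of 32851 mouse windows of the same length. CAGCTG, a form of CANNTG and thus counted in both, was found in 1 window, that of Lamb3 shown above, ending 19 bases before the RefSeq start, and in 13% of all windows. GCGNGGGCG was found in 1 window, that of Lamb1, ending 65 bases before the RefSeq start, most of them beyond the printed stretch, and in 4.70% of all windows. The NF-kB consensus was found in the second Lamb3 window, which is not printed, and in 7.25% of all windows. The MEF2 consensus was found in none of the 6 windows and in 2.92% of all windows. These matches describe letters in the windows and are not evidence of binding.

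Differentiation was first examined by comparing the DMSO libraries at day 4 with day 0. These groups differ in day, medium, serum and solvent at once, so the effects of these cannot be told apart. All 9 laminin chain genes passed the test at an adjusted p-value under 0.05, against 66.3% of all tested genes, so passing the test was common in this comparison. The call was higher for 8 members, against 33.8% of all tested genes, and lower for 1, against 32.6%. The median log2 fold change of the 9 members was 1.10, beside 0.02 over all tested genes. The size of the change differed widely among members, from a log2 fold change of -0.10 for Lamb1 to 4.22 for Lama1. In all 9 members the day 0 and DMSO libraries did not overlap, as was so for 81.9% of tested genes.

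Lama2, which encodes the alpha chain of the adult muscle fibre, was measured at 73.7 and 76.0 CPM at day 0, 224 and 235 CPM in the DMSO libraries, and 209 and 218 CPM with 4-PBA. Every day 4 library stood well above both day 0 libraries, and the replicates lay close together. The level rose 3.07-fold under DMSO (log2 fold change 1.62, standard error (SE) 0.036, adjusted p = 1.88e-29). This was the largest gain in CPM among the alpha chain genes. A gene annotated on the opposite strand, Gm48084, had between 0 and 15 counts per library, and whether counting used strand was not stated.

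Lama4, whose chain is known from vessels, nerve and developing muscle, was measured at 3.33 and 4.89 CPM at day 0, 17.2 and 17.3 CPM in the DMSO libraries, and 18.5 and 18.1 CPM with 4-PBA. The day 0 libraries were low and differed from each other more, in proportion, than the day 4 libraries did. It rose 4.10-fold under DMSO (log2 fold change 2.04, SE 0.11, adjusted p = 1.87e-15).

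Lama1, the alpha chain of the earliest embryonic basement membranes, was barely detected at day 0, with 0.0206 and 0.199 CPM from 1 and 14 reads. It reached 2.58 and 2.17 CPM in the DMSO libraries and 3.53 and 3.69 CPM with 4-PBA. All day 4 libraries were thus above day 0, and both 4-PBA libraries were above both DMSO libraries. The pooled reads gave an 18.7-fold higher level with DMSO than at day 0, with a 95% interval of 11.2 to 33.8 that covers counting error only. The fitted log2 fold change was 4.22 (SE 0.35, adjusted p = 3.07e-12), and it was 3.55 without the first day 0 library and 6.72 without the second, so its size rests on a handful of day 0 reads.

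Lama3, the alpha chain of epithelial laminin, was measured at 3.31 and 2.62 CPM at day 0, 6.58 and 6.0 CPM in the DMSO libraries, and 5.69 and 5.78 CPM with 4-PBA. Lamb3, its beta chain partner in epithelia, was measured at 12.7 and 10.9 CPM at day 0, 27.4 and 24.2 CPM in the DMSO libraries, and 22.9 and 24.1 CPM with 4-PBA. In both genes every day 4 library lay above every day 0 library. Lama3 rose 2.14-fold by day 4 of DMSO (log2 fold change 1.10, SE 0.14; adjusted p = 1.9e-08). Lamb3 rose 2.20-fold (log2 fold change 1.14, SE 0.08, adjusted p = 2.29e-14). The summed level of the 7 epithelial markers was 6.23 and 5.44 CPM at day 0, and 4.90 and 4.56 CPM in the DMSO libraries. It was 4.64 and 4.67 CPM with 4-PBA, and most of the sum came from the keratin gene Krt14. Of the 3 markers tested, 1 was called lower with DMSO than at day 0 and 0 were called higher. Cdh1 was low but went the other way from the sum, at 0.288 and 0.271 CPM at day 0 and 0.460 and 0.526 CPM with DMSO (edgeR adjusted p = 0.106).

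Lama5, the broadly expressed alpha chain gene, was measured at 479 and 475 CPM at day 0, 563 and 543 CPM in the DMSO libraries, and 548 and 551 CPM with 4-PBA. It was 1.16-fold higher with DMSO than at day 0 (log2 fold change 0.21, SE 0.03, adjusted p = 5.33e-08). The change was small, but the 4 day 4 libraries lay above both day 0 libraries.

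Among the beta chain genes, Lamb2, whose chain is concentrated at the neuromuscular junction, was measured at 145 and 145 CPM at day 0, 233 and 226 CPM in the DMSO libraries, and 229 and 230 CPM with 4-PBA. It rose 1.58-fold under DMSO (log2 fold change 0.66, SE 0.03, adjusted p = 2.33e-19), with day 0 and day 4 far apart. Lamb1, the widely expressed beta chain of embryonic and many adult basement membranes, was measured at 351 and 347 CPM at day 0, 335 and 318 CPM in the DMSO libraries, and 329 and 336 CPM with 4-PBA. It fell by 0.10 on the log2 scale under DMSO (SE 0.03, adjusted p = 0.00658), and the call was lost without the first day 0 library (adjusted p = 0.0553) or without the second DMSO library (-0.06, adjusted p = 0.0889).

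Lamc1, the gamma chain shared by most laminins, was measured at 259 and 259 CPM at day 0, 283 and 263 CPM in the DMSO libraries, and 273 and 273 CPM with 4-PBA. Its log2 fold change with DMSO was 0.08 (SE 0.03, adjusted p = 0.0417). This call was lost in 12 of 15 alternative settings, and without the first DMSO library the log2 fold change was 0.02 with an adjusted p of 0.538. Lamc3, a gamma chain gene outside the 9 members and of low level here, was at 0.453 and 0.556 CPM at day 0 and at 1.11 and 1.24 CPM under DMSO (log2 fold change 1.20, SE 0.30, adjusted p = 7.29e-04).

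**Figure D1:**
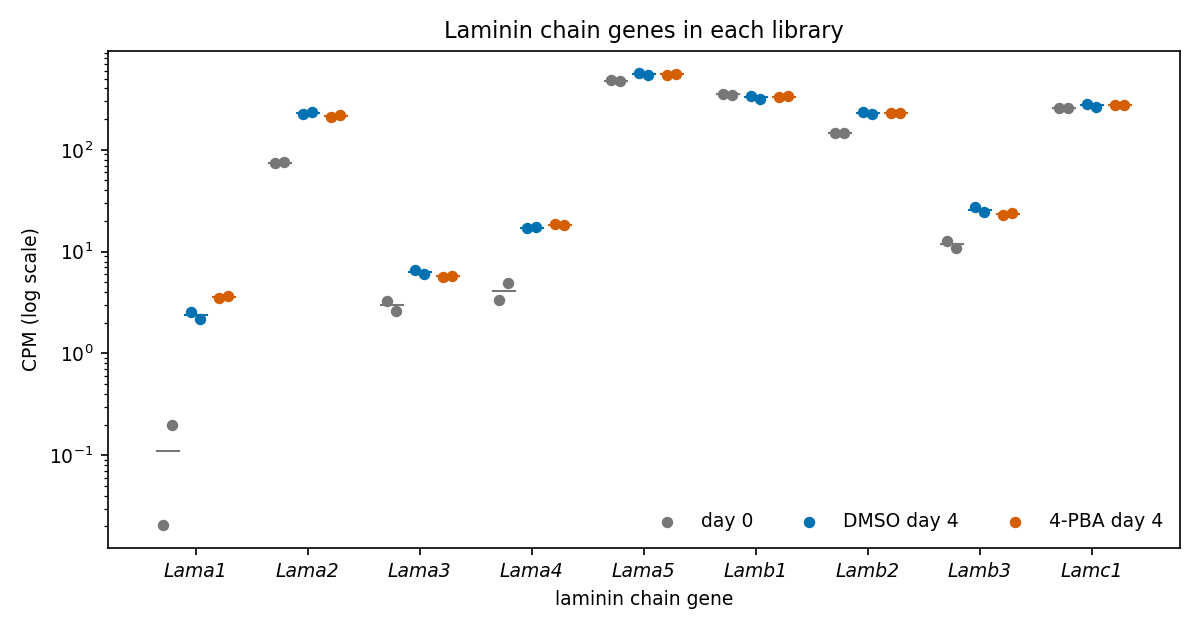
Level of each laminin chain gene in CPM on a log10 axis, 1 point per library and a line at each group mean, for day 0, DMSO day 4 and 4-PBA day 4. Lama1 is near 0 at day 0, Lama2 and Lama4 stand clearly higher at day 4, and Lamb1 and Lamc1 lie at nearly the same level in the 3 groups.

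To compare genes with each other, CPM was divided by the length of all annotated exons of a gene in kilobases (kb), and the order was repeated with the longest transcript. At day 0 the level was 41.9 ± 0.275 CPM per kb for Lama5, 35.2 ± 0.261 for Lamb1, 31.3 ± 0.0445 for Lamc1 and 23.9 ± 0.0299 for Lamb2 (mean ± SD, n = 2). Lama2 followed at 4.58 ± 0.0965 and Lamb3 at 1.79 ± 0.197, while Lama4 at 0.341 ± 0.091 and Lama3 at 0.276 ± 0.0455 overlapped and Lama1 was last at 0.0114 ± 0.0131 CPM per kb. The gene pool at day 0 was thus headed by one alpha, both main beta and one gamma chain gene, with all other alpha chain genes well below.

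With DMSO at day 4, Lama5 stood at 48.6 ± 1.27 CPM per kb and Lamb2 at 37.7 ± 0.823. Lamc1 at 33.0 ± 1.67 and Lamb1 at 32.9 ± 1.20 could not be ordered, since their libraries overlapped. Lama2 had risen to 14.1 ± 0.471 CPM per kb and was followed by Lamb3 at 3.91 ± 0.343, Lama4 at 1.43 ± 0.00509, Lama3 at 0.585 ± 0.038 and Lama1 at 0.246 ± 0.0302. With 4-PBA the first was again Lama5 at 48.2 ± 0.174 and the next Lamb2 at 37.7 ± 0.0116 CPM per kb. With the longest transcript as length, Lamb1 headed the order in all 3 groups, at 60.4 CPM per kb at day 0 and 56.5 with DMSO, so the place of Lamb1 depends on the length used.

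Summed over the 5 alpha chain genes, the level per length rose from 47.1 ± 0.120 CPM per kb at day 0 to 64.9 ± 0.866 with DMSO, and was 63.7 ± 0.534 with 4-PBA. For the 3 beta chain genes the sums were 60.9 ± 0.487, 74.6 ± 2.37 and 74.8 ± 0.656 CPM per kb. The alpha and beta sums did not overlap between day 0 and day 4.

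Within the alpha chain sum, the share of Lama5 was 89.2% and 88.7% at day 0, 75.5% and 74.2% in the DMSO libraries, and 75.9% and 75.4% with 4-PBA. The share of Lama2 was 9.56% and 9.88% at day 0, 21.0% and 22.4% in the DMSO libraries, and 20.2% and 20.8% with 4-PBA. Both shares were apart between day 0 and day 4, and with the longest transcript as length the mean share of Lama2 went from 15.4% to 31.4% between day 0 and DMSO. The mean share of Lama4 was 0.723% at day 0 and 2.20% in the DMSO libraries, and that of Lama1 was 0.0242% and 0.378%.

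Within the beta chain sum, the share of Lamb1 was 57.8% and 57.9% at day 0, 44.3% and 44.0% in the DMSO libraries, and 44.6% and 45.0% with 4-PBA. The share of Lamb2 was 39.0% and 39.4% at day 0, 50.2% and 50.9% in the DMSO libraries, and 50.8% and 50.2% with 4-PBA. Day 0 and day 4 libraries did not overlap, and the share moved from Lamb1 to Lamb2 with either length. Which of the genes was the higher at day 4 depended on the length, since with the longest transcript Lamb1 held 55.1% and Lamb2 39.7% with DMSO. For these shares, an exact permutation test of 2 libraries against 2 cannot go below a two-sided p of 0.333, so the comparison rests on the ranges.

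**Figure D2:**
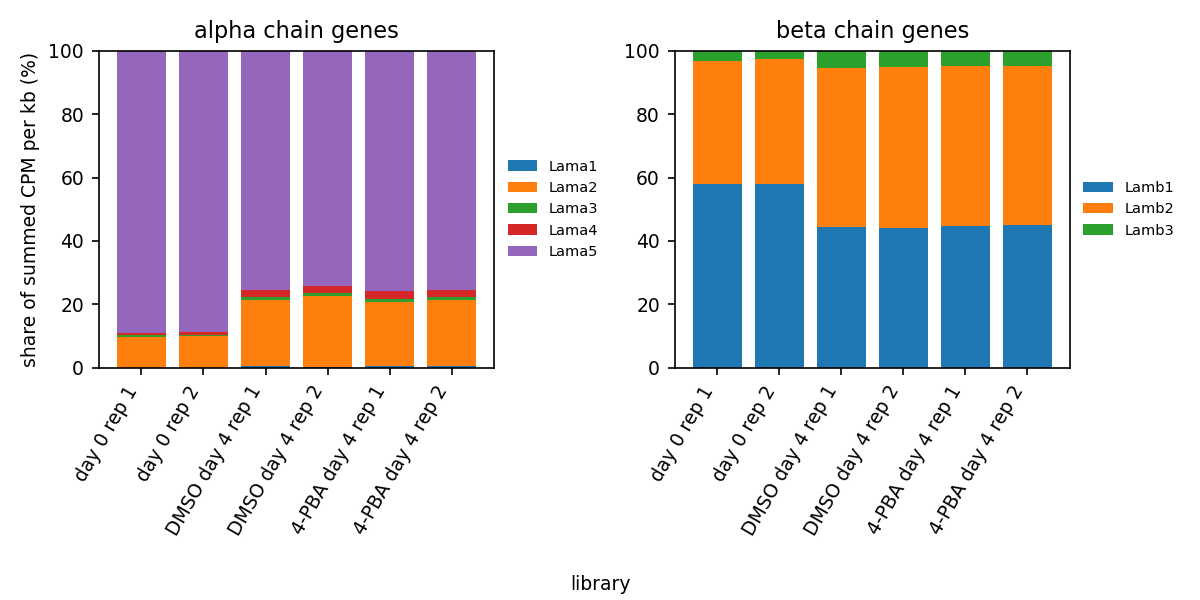
Share of each gene in the summed CPM per kb of its chain class, in percent, as 1 stacked bar per library. Lama5 takes 88.7% or more of the alpha chain sum at day 0 and at most 75.9% at day 4, and the Lamb2 share is larger at day 4.

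The effect of 4-PBA was examined by comparing it with DMSO at day 4. With edgeR's quasi-likelihood test 0 of 9 laminin chain genes were called, against 4.9% of all tested genes (2.13% higher and 2.78% lower), so with 9 members a count of 0 is close to that background. DESeq2 and limma-voom also called 0, and 2 members, Lama1 and Lama2, had an unadjusted p-value under 0.05. The median log2 fold change of the members was 0.00020, beside 0.0021 over all tested genes. The libraries of the groups did not overlap for 5 members, Lama1, Lama2, Lama3, Lama4 and Lamb3, against 45.5% of tested genes.

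Lama1 had the largest fitted difference, 1.52-fold higher with 4-PBA (log2 fold change 0.61, 95% interval 0.18 to 1.04, adjusted p = 0.0973). It was called when only the 4 libraries compared were fitted (adjusted p = 0.0341) and without the second day 0 library (adjusted p = 0.0454). Lama2 had a log2 fold change of -0.11 (95% interval -0.18 to -0.04, adjusted p = 0.0653), and was called without the first DMSO library (-0.14, adjusted p = 0.00414), without a filter on low counts (adjusted p = 0.0484) and with a stricter filter (adjusted p = 0.0393). For each gene, the rest of the 15 alternative settings gave no call. Over all these settings the log2 fold change ran from 0.48 to 0.73 for Lama1 and from -0.14 to -0.07 for Lama2. The directions were thus opposite, and whether either gene was called depended on the setting.

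For the other members the intervals of the log2 fold change bound what these libraries can show. The interval was -0.40 to 0.13 for Lama3, -0.11 to 0.28 for Lama4 and -0.29 to 0.02 for Lamb3. It was narrower for the abundant genes, at -0.07 to 0.05 for Lama5, -0.04 to 0.09 for Lamb1, -0.06 to 0.07 for Lamb2 and -0.07 to 0.07 for Lamc1. In percent, the interval for Lamc1 ran from -4.46% to 4.70%, and that for Lama5 from -4.64% to 3.42%. These 7 members had adjusted p-values from 0.377 (Lamb3) to 0.998 (Lamc1).

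Against day 0, the 4-PBA libraries gave calls for all 9 members, beside 65.6% of all tested genes. Of these, 8 were higher, against 33.2% of tested genes, and 1, Lamb1, was lower, against 32.4%. No member's 4-PBA libraries overlapped those of day 0, as was so for 81.8% of tested genes. The comparison shares its day 0 libraries with that of DMSO, and the log2 fold changes were 4.83 for Lama1, 1.51 for Lama2, 0.97 for Lama3, 2.12 for Lama4, 0.20 for Lama5, -0.07 for Lamb1, 0.66 for Lamb2, 1.00 for Lamb3 and 0.08 for Lamc1. The calls of Lamb1 and Lamc1 were close to the threshold (adjusted p = 0.0408 and 0.0417), and were lost in 8 and 10 of 15 alternative settings. From pooled reads, Lama1 was 28.6-fold higher than at day 0, with a counting interval of 17.1 to 51.5.

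**Figure D3:**
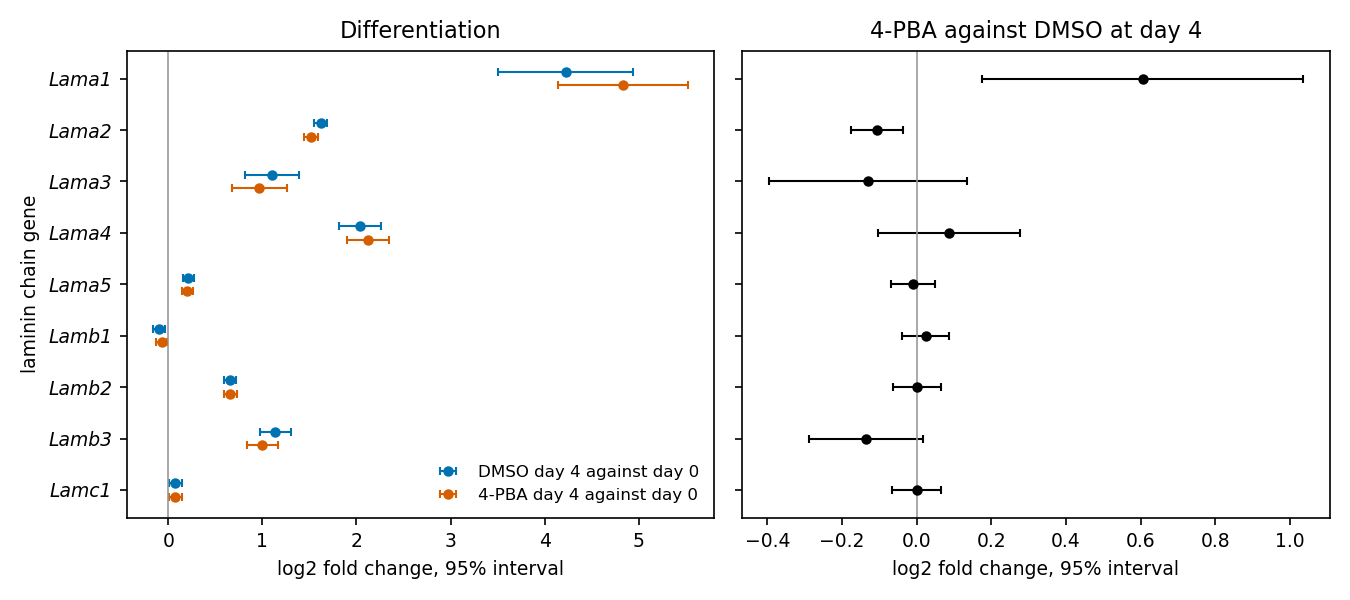
Log2 fold change of each laminin chain gene with its 95% interval, for day 4 against day 0 on the left and 4-PBA against DMSO on the right. On the left Lama1, Lama4 and Lama2 lie furthest from 0, and on the right the intervals of Lama1 and Lama2 leave 0 but neither passes the adjusted threshold.

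The other genes of the laminin system were taken from lists of receptors, dystroglycan-modifying enzymes and basement membrane partners. Of 12 receptor genes 11 were tested, Itga2 being too low, and with DMSO against day 0 8 rose and 3 fell, with a median log2 fold change of 0.62. In this comparison 33.8% of all tested genes were called higher and 32.6% lower. Bcam, a receptor of the alpha 5 chain, rose most, from 7.30 and 7.75 CPM to 41.4 and 42.0 CPM (log2 fold change 2.47, adjusted p = 5.43e-27). Itga7, the alpha subunit of the main laminin integrin of muscle fibres, rose with a log2 fold change of 1.5, its partner subunit Itgb1 with 0.62, and Dag1, which encodes dystroglycan, with 1.35. Sdc2, a heparan sulfate proteoglycan, rose with 1.55, and Itga6, the alpha subunit of a laminin integrin of proliferating myoblasts and epithelia, with 0.27. The 3 that fell, named after their values were seen, were Itga3 (-1.11), Itgb4 (-0.94) and Sdc4 (-0.67).

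With 4-PBA against DMSO, 3 of 11 receptor genes were called, against 4.9% of all genes. Sdc2 was measured at 542 and 540 CPM under DMSO and at 595 and 588 CPM with 4-PBA, and rose by 0.13 on the log2 scale (adjusted p = 0.00437). Itga7 fell by 0.10 (adjusted p = 0.0138) and Itga6 fell by 0.13 (adjusted p = 0.0303). The call of Itga6 was lost with the DESeq2 Wald test (adjusted p = 0.0631) and when edgeR was fitted to only the 4 libraries compared (adjusted p = 0.0508). All 3 differences were small, and these calls were not kept when either 4-PBA library was left out. Those fits also gave fewer calls over all tested genes, so the loss was not particular to the receptors. Itgb1 and Dag1 had log2 fold changes of 0.02 and -0.01, with 95% intervals of -0.04 to 0.07 and -0.07 to 0.05.

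Of 18 genes for enzymes that build the laminin-binding sugars of dystroglycan, 9 rose, 2 fell and 7 were not called with DMSO, with a median log2 fold change of 0.16. Over all tested genes 66.3% were called, 33.8% higher and 32.6% lower, so calls were no more common among these enzymes. Dpm1, which makes a mannose donor, rose with 0.75 (adjusted p = 3.48e-07) and Pomgnt2, which adds a sugar to O-mannose, with 0.41 (adjusted p = 0.0135). The call of Pomgnt2 was lost without the second day 0 library (adjusted p = 0.123) or without the second DMSO library (adjusted p = 0.357). Pomt1, which starts the sugar chain, fell by 0.87 (adjusted p = 2.24e-14), and the other gene that fell, named after its values were seen, was Dpm2 (-0.41). With 4-PBA against DMSO edgeR, DESeq2 and limma-voom called none of these genes, where edgeR called 4.9% of all tested genes. Pomt1 alone had an unadjusted p-value under 0.05, with a log2 fold change of 0.14 and an adjusted p of 0.254.

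Of 22 basement membrane partners 19 were tested (Col4a3, Col4a4 and Egfl6 were too low), and with DMSO 11 rose, 5 fell and 3 were not called, with a median log2 fold change of 0.65. Among all tested genes 33.8% were called higher and 32.6% lower. Sparc, a collagen-binding matrix protein, rose with 1.42 (adjusted p = 4.95e-32) and Nid2, which links laminin to collagen IV, with 1.37 (adjusted p = 5.65e-28). The genes of the main collagen IV chains, Col4a1 and Col4a2, rose with 0.90 and 0.92. Tinagl1, a matrix protein related to cathepsins, fell by 2.57 and Fbln1, a fibulin, fell by 1.94. The other 3 that fell, named after their values were seen, were Nid1 (-0.87), Smoc2 (-0.42) and Efemp2 (-0.58).

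With 4-PBA against DMSO, 4 of 19 partners were called and all were higher, against 2.13% of all genes. Nid2 was measured at 218 and 227 CPM under DMSO and at 261 and 257 CPM with 4-PBA (log2 fold change 0.22, adjusted p = 2.66e-05). Col4a1 and Col4a2, which lie head to head on one chromosome, each rose by 0.18 (adjusted p = 5.43e-05 and 6.95e-05). Their annotated exons overlap on opposite strands, as do those of Nid2 and Rtraf, and whether counting used strand was not stated. Fbln1 rose by 0.33 (adjusted p = 2.87e-04), from 21.0 and 19.9 CPM to 26.1 and 25.3 CPM. For each of these 4 genes, named because they were called, the 4-PBA libraries lay above both DMSO libraries. The groups did not overlap for 45.5% of all tested genes. Lama1 and Lama4 also lay above both DMSO libraries, and Lama2, Lama3 and Lamb3 lay below them. None of the 9 laminin chain genes was called.

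**Figure D4:**
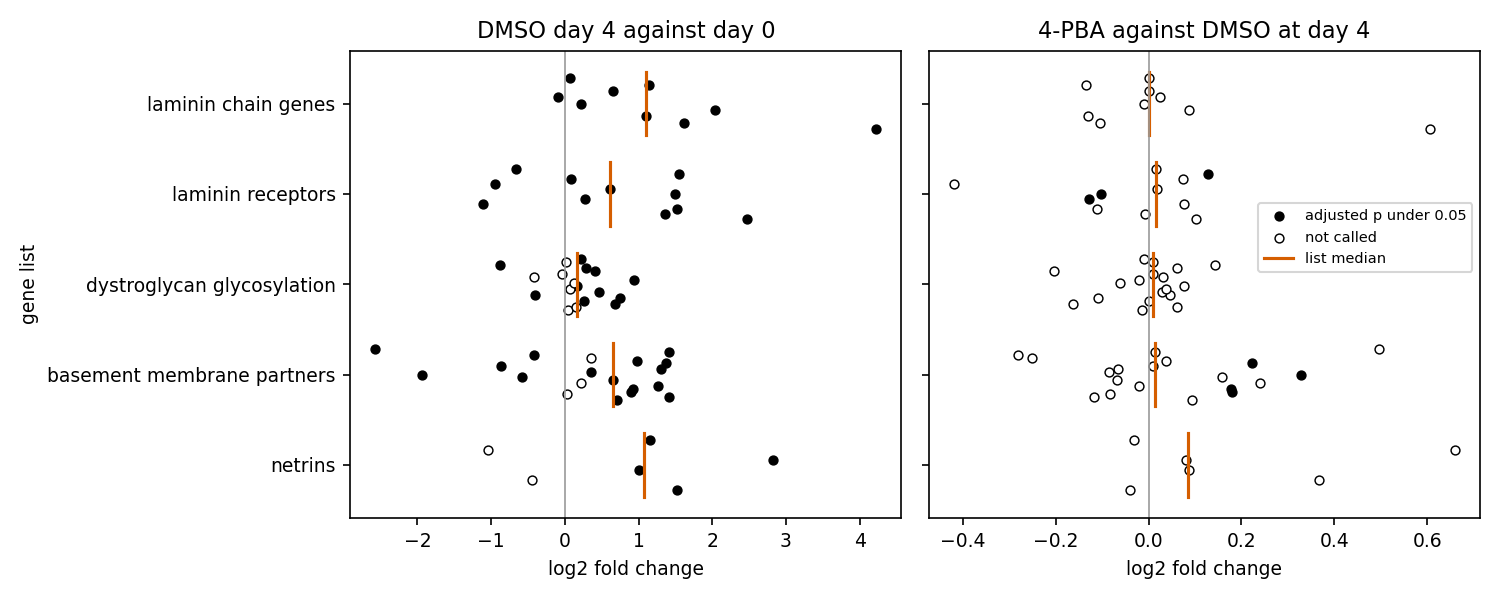
Log2 fold change of every tested gene in the laminin list and the lists of related genes, 1 point per gene, filled where the adjusted p was under 0.05, with the median of the list as a line. With DMSO against day 0 the laminin median is 1.10, and with 4-PBA against DMSO all laminin points are open and the filled points are among receptors and basement membrane partners.

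Genes with the most similar pattern were found by the Euclidean distance of centred log2 CPM over the 6 libraries, among 17432 other genes. The gene nearest to Lama3 was Lamb3 (distance 0.10), followed by Rhbdf2, and Lama3 was the second nearest to Lamb3 after Cry2. The nearest pairs were Adora1 and Gja5 for Lama1, Cobl and Ccnd3 for Lama2, Pcdhb14 and Gfpt2 for Lama4, and 5031439G07Rik and Fan1 for Lama5. For Lamb1 they were Map6 and Zfp451, for Lamb2 Smim14 and Syt11, and for Lamc1 Usp19 and Tmem184b. Among members, the distance was 0.16 between Lama5 and Lamc1, 0.19 between Lamb1 and Lamc1 and 0.34 between Lama5 and Lamb1. Many other genes were nearer, since Lamc1 ranked 1029 from Lama5 and 1742 from Lamb1 among the tested genes. Lama1 was the farthest from every other member, though its day 0 values in this distance came from 1 and 14 reads.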

How the data were processed

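RNA was DNase-treated and made into directional libraries, per the labels. The authors deposited raw counts per gene symbol for 6 libraries, with no normalization. The submitters' processing notes name build GRCm39, while the aligner, counter, annotation and strand setting are not given in the sources used here. The counts were fitted in R 4.3.3 with edgeR 4.0.16: filterByExpr, TMM scaling, 1 mean per group over all 6 libraries, and robust quasi-likelihood tests with Benjamini-Hochberg adjustment over 17433 genes, called at an adjusted p under 0.05. CPM was computed after TMM. Lengths and overlaps came from GENCODE M21, which matched 36556 of 43074 symbols. The fit was tested on simulated counts. DESeq2 1.42.0, limma-voom (limma 3.58.1), other scalings, filters and fits, and each library left out were tried. Members and lists were chosen with earlier results of these data known. Context genes named were, per list, the 3 with the smallest adjusted p with 4-PBA against DMSO and the 3 with the largest called change with DMSO at 5 CPM or more, plus 4 fixed receptors; some genes that the rule names are not reported here. Nearest genes were the 2 closest to each member.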

Additional observations from a re-analysis of the deposited data

How the results depend on the processing

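Over 15 alternative settings, the number of laminin chain genes called ranged from 7 to 9 with DMSO against day 0 and from 7 to 9 with 4-PBA against day 0, where 9 were called in each. With 4-PBA against DMSO, where 0 were called, the count was 1 without a filter, with a stricter filter and with only the 4 libraries compared, and 0 to 1 when each library was left out in turn. Of 135 member values per comparison, 14 lost their call with DMSO against day 0 and 18 with 4-PBA against day 0, all of Lamb1 and Lamc1, and no sign changed. With 4-PBA against DMSO 5 values gained a call, of Lama1 and Lama2, and 9 changed sign, all of members near 0. Without a filter and with a stricter filter the log2 fold change was -0.00090 and -0.0012 for Lamb2 and -0.0018 and -0.0021 for Lamc1. Leaving out each library moved it from -0.035 to 0.016 for Lama5, from -0.011 to 0.061 for Lamb1, from -0.020 to 0.022 for Lamb2, from -0.050 to 0.052 for Lamc1, from -0.098 to 0.065 for Lamc3, from -0.0035 to 0.039 for Itgb1, from -0.042 to 0.026 for Dag1, from -0.38 to 0.0069 for Pomgnt2, from -0.00096 to 0.029 for Sparc, from -0.095 to 0.015 for Ntn1 and from -0.0084 to 1.23 for Ntng1, with -1.04 to 0.080 for Ntng1 with 4-PBA against day 0. Scaled by library size only, Dag1 was at 0.00061. In these fits a lone library was assumed to vary like the other groups. Receptor calls with 4-PBA against DMSO went from 3 to 0 without either 4-PBA library, and partner calls from 4 to 7 without the second DMSO library. The cause of these changes was not tested. Settings for related genes were added after seeing the data.

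With the replicate number as a block, 8, 0 and 7 members were called in the 3 comparisons, in the order DMSO against day 0, 4-PBA against DMSO and 4-PBA against day 0. Same-numbered libraries did not deviate together (correlations -0.028, -0.0031 and -0.012 across 17433 genes), so no shared effect of the replicate number was seen. These correlations cannot tell whether same-numbered libraries shared a culture or a day.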

Other observations

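Netrins are secreted or membrane-bound proteins with a domain related to the laminin short arms, and netrin 4 binds laminin itself. With DMSO against day 0, 4 of 6 netrin genes rose and none fell, with a median log2 fold change of 1.08. Of all tested genes 66.3% were called, 33.8% higher and 32.6% lower, so the number of netrin calls was near that share. Ntn1, an axon guidance factor, went from 52.6 and 52.4 CPM to 157 and 145 CPM (log2 fold change 1.53, adjusted p = 1.72e-27). Ntn4 went from 43.7 and 46.3 CPM to 87.5 and 93.5 CPM (log2 fold change 1.01, adjusted p = 1.03e-20). The other 2 that rose, named after their values were seen, were Ntn5 (2.82) and Ntng2 (1.15). With 4-PBA against DMSO, edgeR, DESeq2 and limma-voom called 0 netrin genes, where edgeR called 4.9% of all tested genes. Ntn4 alone had an unadjusted p-value under 0.05, with a log2 fold change of 0.09 and an adjusted p of 0.287. Ntng1 was under 0.2 CPM in every library and was not called in any comparison.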
